A study of Rattus norvegicus with 6 samples.

Results

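The classical MHC class II genes of the rat (RT1-Ba and RT1-Bb of the RT1.B molecule, RT1-Da and RT1-Db1 of the RT1.D molecule) and the invariant chain Cd74 were followed in liver RNA of rats on 2 liquid diets. Members were all probe sets of the Affymetrix RG_U34A array that the platform annotation assigns to these 5 genes, alone or among several RT1 symbols. There were 16 such probe sets of 8799 on the table, and 5 genes of 5147 with a symbol there, each member probe set carrying 1 symbol: 4 for Cd74, 3 for RT1-Ba, 5 for RT1-Bb, 2 for RT1-Da and 2 for RT1-Db1. The NASH group (3 arrays; the name stands for nonalcoholic steatohepatitis) came from male Sprague Dawley rats on a diet of 70% corn oil at 220 kcal a day for each unit of metabolic body mass (kg to the power 3/4). The Control group (3 arrays) came from male Sprague Dawley rats on 5% corn oil at 187 kcal on the same basis. Both groups were fed by total enteral nutrition, that is, liquid diet delivered into the gut, for 3 weeks. Fat content and energy supply differ together, so their parts cannot be told apart. No label says that the 3 arrays of a group come from separate animals, and p-values therefore reflect the spread among these samples alone, part or all of which may be technical.

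MHC class II molecules are pairs of an alpha and a beta chain that display peptides of engulfed proteins to CD4+ T cells. The invariant chain, made by Cd74, holds new class II molecules together and blocks their groove until cathepsins degrade it in endosomes, and DM molecules then load the peptide. In liver, class II is known mainly from Kupffer cells, dendritic cells and B cells rather than from resting hepatocytes, and interferon gamma raises it through the coactivator Ciita. Class II genes and Cd74 share a promoter module of S, X and Y boxes on which the RFX, CREB and NF-Y factors assemble and recruit Ciita.

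Because that module is known from class II genes and Cd74, stretches with exact matches to its X or Y core letters are printed here. The sequences come from the RefSeq promoter table of rat build GRCr8. Of the 5 genes, only RT1-Da and RT1-Db1 held exact matches to both cores. All 5 genes were found in the table. Capitals mark exact matches to the Y box core TGATTGG or to the X box core AGCAAC, both searched on both strands in the 250 bases before each gene's start in that table, and the letters of the cores do not overlap. The RT1 stretches run from 160 bases before that start to the start or to the gene's annotated edge, and for Cd74, whose annotated edge lies further upstream, 30 bases around the match are given.
RT1-Ba, chr20:4576897-4577056, plus strand: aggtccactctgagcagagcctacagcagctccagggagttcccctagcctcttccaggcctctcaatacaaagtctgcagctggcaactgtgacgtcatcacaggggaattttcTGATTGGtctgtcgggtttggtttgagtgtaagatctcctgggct
RT1-Bb, chr20:4604119-4604278, minus strand: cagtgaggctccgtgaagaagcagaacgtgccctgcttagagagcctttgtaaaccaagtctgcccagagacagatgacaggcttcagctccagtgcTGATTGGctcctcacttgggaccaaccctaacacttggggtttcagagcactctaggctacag
RT1-Da, chr20:4515255-4515392, plus strand: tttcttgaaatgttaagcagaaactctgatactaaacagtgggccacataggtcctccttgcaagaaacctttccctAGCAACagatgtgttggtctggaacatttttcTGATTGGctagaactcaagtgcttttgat
RT1-Db1, chr20:4560183-4560322, minus strand: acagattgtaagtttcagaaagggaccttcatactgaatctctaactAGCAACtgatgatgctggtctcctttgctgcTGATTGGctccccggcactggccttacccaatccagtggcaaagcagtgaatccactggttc
Cd74, chr18:56527123-56527152, plus strand: cagttccacattAGCAACgtgggcggagtg

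All 4 RT1 members held TGATTGG on the gene's strand, its first base lying 45 bases before the start in RT1-Ba, 63 in RT1-Bb, 51 in RT1-Da and 82 in RT1-Db1. AGCAAC stood upstream of it in RT1-Da and RT1-Db1, with 26 and 25 bases between the cores, and was not matched exactly in RT1-Ba and RT1-Bb. Cd74 held AGCAAC with its first base 71 bases before the start in that table and no exact TGATTGG in the searched stretch. The annotated Cd74 gene begins 135 bases before that table start, so this match lies inside the annotated gene. Part of the searched stretch lies there too, so less sequence upstream of the annotated gene was searched. Whether the Cd74 match is an X box was not tested. Of 33469 rat promoters of the same length, 3.26% held TGATTGG on the gene's strand (6.42% on either strand) and 6.27% held AGCAAC (12.1% on either strand). The 2 cores in this order, at most 40 bases apart, occurred in 21 promoters, or 0.0627%. Among those 21 were 6 class II genes, the members RT1-Da and RT1-Db1 and the non-members RT1-Db2, RT1-DOa, RT1-DOb and RT1-Ha, with 23 to 26 bases between the cores. Of 9 class II genes in the table (RT1-DMb was not matched), all 9 held TGATTGG and 6 held AGCAAC. These matches describe letters in the genome and do not show that a factor was bound in these livers.

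**Figure D1:**
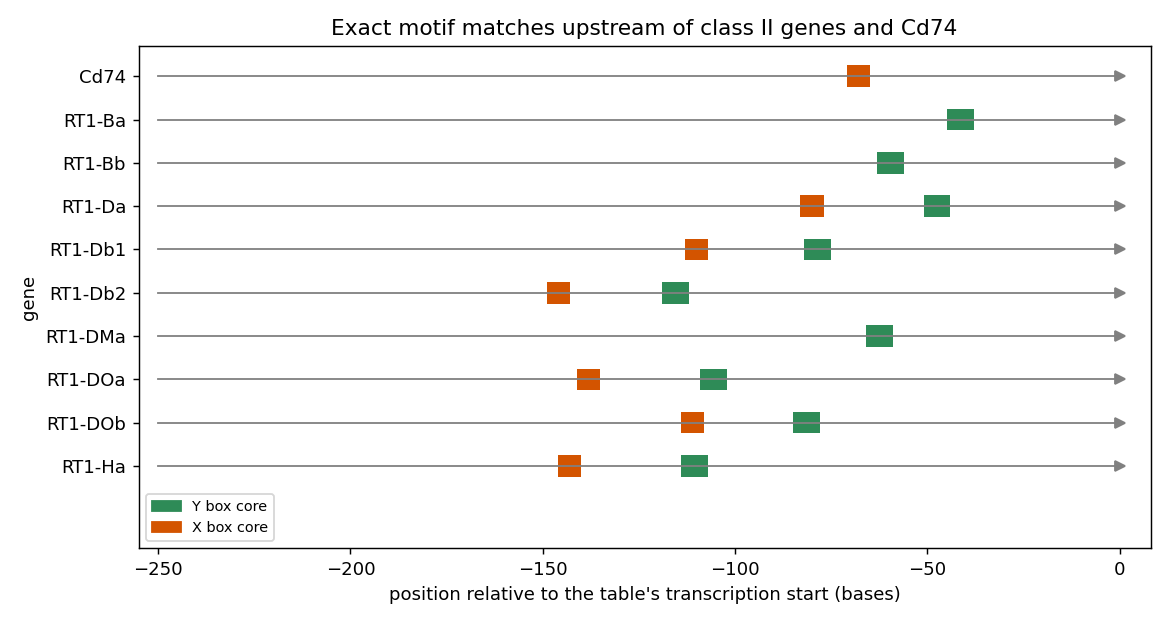
Exact matches to the X box core (orange) and Y box core (green) in the 250 bases before the start of Cd74 and 9 class II genes in the promoter table, with distance to that start in bases on the horizontal axis. The Cd74 match lies inside the annotated gene. The Y box core is present in all 9 RT1 genes, and where both cores occur 23 to 26 bases lie between them.

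Values are MAS5 signals per probe set, given as deposited or, for every comparison, on the scale log2(quantile-normalized signal + offset). Affymetrix suffixes tell how specific a probe set is: _at and _g_at sets were designed for 1 transcript or a close group, _s_at sets share probes among several similar transcripts, and _i_at sets are incomplete. MHC genes vary between strains and resemble each other, RT1-Db1 and RT1-Db2 for example, so a probe set may miss part of an allele or pick up a relative. Of the 16 members, 13 lay above the filter on dim probe sets and were tested among 5244. The other 3 were dim. RT1-Bb M36151cds_i_at had deposited signals of 0.540 to 2.08 in NASH and 1.46 to 1.61 in Control. RT1-Bb M15358cds_at had 0.746 to 1.73 in NASH and 0.937 to 11.4 in Control. RT1-Db1 X53054_at had 6.69 to 15.4 in NASH and 8.29 to 34.2 in Control. For each of these 3 the groups overlapped.

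The trimmed mean of the deposited signal was 73.6 to 107 in NASH, NASH 3 being lowest of all arrays, and 88.4 to 117 in Control, so the arrays were quantile normalized. Pairwise correlations between arrays over log2 values were 0.931 to 0.970, and no 2 arrays held the same values. The hepatocyte marker albumin (Alb) was high on every array, at 4707 to 5751 in NASH and 5369 to 7349 in Control. Control markers and transcripts of other tissues set 2 arrays apart. NASH 2 held fat and muscle transcripts, with Fabp4 at 1044 against at most 4.47 in the other 5 arrays and Acta1 at 1322 against at most 18.9. The 3' over 5' ratio of the actin control, which rises as RNA degrades, was 2.18 to 2.93 in NASH and 2.15 to 2.52 in Control 1 and 2 but 5.07 in Control 3, and that of Gapdh was 2.04 in Control 3 and at most 1.29 elsewhere. In the instrument records the hybridization date was filled for NASH 1, NASH 2, Control 1 and Control 3 and blank for NASH 3 and Control 2. The filled or blank state of this date is called the wash record here. Within the filled record both Control arrays carry an earlier fluidics time than both NASH arrays, so that order and diet cannot be told apart among these 4 arrays.

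Class II and Cd74 transcripts were measured on both diets, and no member passed the test for a difference between them. Cd74 averaged 0.20 to 0.41 lower in NASH on the log2 scale over its 4 probe sets, RT1-Da 0.02 to 0.12 higher over its 2 with all arrays in, and RT1-Ba and RT1-Bb differed in sign among their own probe sets. Of the 13 tested members, 0 were called (limma, threshold 0.05 after Benjamini-Hochberg adjustment), where 0.133% of all probe sets (7 of 5244) were; for calls lower in NASH the background was 0.0381%. Member adjusted p-values ran from 0.618 to 0.993. Before adjustment, 1 member of 13 had a p under 0.05, against a background of 7.88%. The groups did not overlap for 1 member of 13, against 14.3% of all probe sets, and it had NASH below Control, as 7.76% did. Over all 16 members the median difference was −0.26 (with the wash record as a block −0.26, within the filled record −0.17, and 1 array against 1 within the blank record −0.48). The block cannot move a difference, because each record holds as many NASH as Control arrays. Over the 13 tested, the median within the filled record was −0.05, with 7 lower in NASH, and −0.03 over all probe sets. Within the blank record these medians were −0.56 and −0.02. Leaving out NASH 3 moved the median of the 16 to −0.088 and leaving out Control 3 to −0.089. The median was −0.23 over the 13 tested, 0.07 over the same 13 without NASH 3, and −0.02 over all 5244 probe sets. The median absolute difference was 0.23 over the tested members and 0.23 over all probe sets, and standard errors of the members ran from 0.20 to 0.63. In whole liver, the number of class II cells and their RNA per cell cannot be told apart in any of these values.

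**Figure D2:**
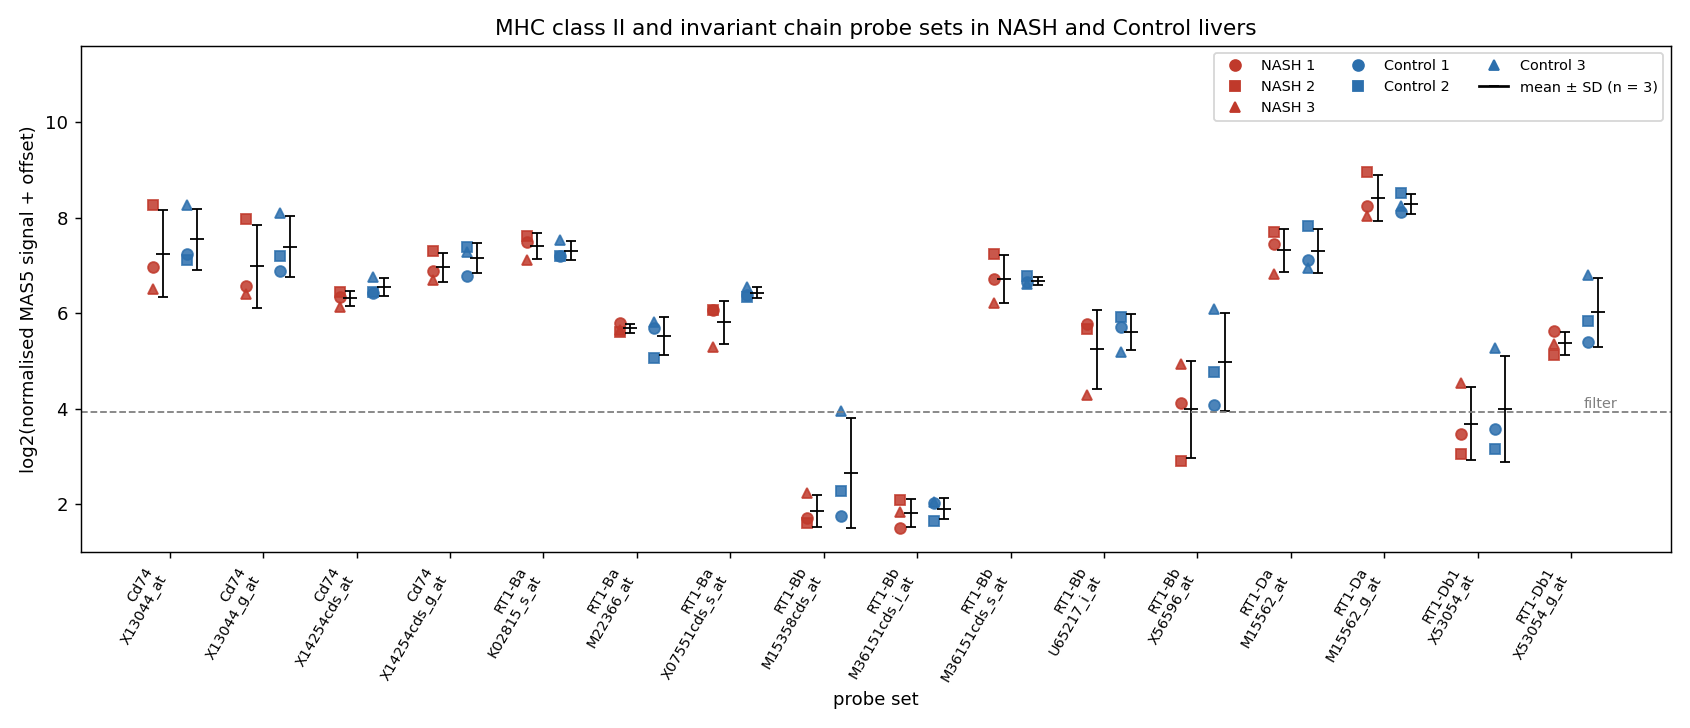
Log2 values of all 16 member probe sets (horizontal axis) in the 3 NASH arrays (red) and the 3 Control arrays (blue), with the mean and SD of each group in black and the filter as a dashed line. The groups overlap for all members except RT1-Ba X07551cds_s_at, where the 3 NASH values lie below the 3 Control values.

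Cd74, the invariant chain, was measured by 2 pairs of probe sets that behaved differently from array to array. X13044_at had log2 values of 6.97, 8.27 and 6.51 in NASH 1, 2 and 3, against 7.25, 7.12 and 8.28 in Control 1, 2 and 3. NASH 2 and Control 3 were high and the other 4 arrays lay at least 1 log2 unit lower, so that the spread within each group was larger than the difference of −0.30 ± 0.49 (standard error, n = 3 per group; limma adjusted p = 0.896). X13044_g_at was also highest in NASH 2 and Control 3, with 6.58, 7.98 and 6.40 in NASH and 6.89, 7.20 and 8.10 in Control (−0.41 ± 0.48, adjusted p = 0.841). X14254cds_at was nearly level, at 6.34, 6.46 and 6.14 in NASH and 6.42, 6.46 and 6.77 in Control (−0.23 ± 0.20, adjusted p = 0.785). X14254cds_g_at had 6.88, 7.31 and 6.70 in NASH and 6.79, 7.40 and 7.29 in Control (−0.20 ± 0.25, adjusted p = 0.859). For each pair the groups overlapped. The 95% intervals of the NASH minus Control difference were −1.43 to 0.83 for X13044_at, −1.51 to 0.69 for X13044_g_at, −0.70 to 0.23 for X14254cds_at and −0.79 to 0.39 for X14254cds_g_at. The intervals of the first pair were wider than those of the second. Leaving out Control 3 or NASH 3 turned the sign of X13044_at, to 0.07 in both cases, and without NASH 2 its difference was −0.81. Its limma adjusted p lay between 0.765 and 0.991 with each array left out in turn. The difference of X13044_g_at was −0.92 without NASH 2 and −0.055 without Control 3, and that of X14254cds_g_at was −0.38 without Control 1 and −0.066 without NASH 3.

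RT1-Ba, the alpha chain of RT1.B, gave the only member whose groups lay apart. X07551cds_s_at had log2 values of 6.07, 6.08 and 5.30 in NASH, against 6.38, 6.34 and 6.56 in Control. All 3 NASH arrays were below all 3 Control arrays, with NASH 3 lowest. The limma difference was −0.61 ± 0.26 (95% interval −1.21 to −0.02, adjusted p = 0.618). It was −0.35 without NASH 3, −0.40 among the 4 arrays whose wash record is filled, where fluidics order and diet coincide, and −1.05 for NASH 3 minus Control 2, the pair with a blank one. The other RT1-Ba sets had overlapping groups and differences above 0 that depended on single arrays, at −0.0015 for K02815_s_at without NASH 2 and −0.071 for M22366_at without Control 2. K02815_s_at had 7.50, 7.62 and 7.11 in NASH and 7.20, 7.20 and 7.54 in Control (0.10 ± 0.22, adjusted p = 0.927). M22366_at had 5.79, 5.62 and 5.65 in NASH and 5.70, 5.07 and 5.82 in Control (0.16 ± 0.24, adjusted p = 0.891). The 95% interval reached from −0.41 to 0.61 for K02815_s_at and from −0.40 to 0.72 for M22366_at. The _s_at suffix of X07551cds_s_at and K02815_s_at means that other transcripts can contribute to both.

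RT1-Bb, the beta chain of RT1.B, had 3 tested probe sets with 3 different patterns. M36151cds_s_at had 6.72, 7.24 and 6.21 in NASH and 6.65, 6.77 and 6.62 in Control, so that NASH held both the highest and the lowest array (0.04 ± 0.28, limma adjusted p = 0.979). U65217_i_at had 5.78, 5.67 and 4.30 in NASH and 5.72, 5.92 and 5.20 in Control, with NASH 3 well below the rest (−0.36 ± 0.41, adjusted p = 0.840, and 0.11 without NASH 3). X56596_at had 4.12, 2.92 and 4.93 in NASH and 4.09, 4.77 and 6.09 in Control. Control 3 was highest and NASH 2 lowest, more than 3 log2 units apart, and the difference of −0.99 ± 0.63 had the widest 95% interval of the members, −2.45 to 0.47 (adjusted p = 0.696). It was −0.43 without Control 3 and −1.46 without NASH 3.

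RT1-Da, the alpha chain of RT1.D, had differences of small size on both of its probe sets, whose sign depended on single arrays. M15562_g_at had log2 values of 8.25, 8.95 and 8.04 in NASH and 8.12, 8.51 and 8.24 in Control (0.12 ± 0.27, 95% interval −0.50 to 0.74, limma adjusted p = 0.928). M15562_at had 7.45, 7.70 and 6.83 in NASH and 7.12, 7.84 and 6.96 in Control (0.02 ± 0.32, 95% interval −0.72 to 0.76, adjusted p = 0.993). Without NASH 2 the difference was −0.15 for M15562_g_at and −0.17 for M15562_at, and M15562_at was also below 0 without NASH 1, Control 1 or Control 3. In both the groups overlapped, and the highest array was NASH 2 for the one and Control 2 for the other. Its partner RT1-Db1, the beta chain, showed another order. X53054_g_at had 5.63, 5.13 and 5.36 in NASH and 5.41, 5.84 and 6.81 in Control, with Control 3 alone about 1 log2 unit above the next array. The difference was −0.65 ± 0.36 (95% interval −1.47 to 0.17, adjusted p = 0.647) and −0.25 without Control 3. The dim set X53054_at had its highest value in the same array, 5.27 against 3.06 to 4.54 in NASH and 3.15 to 3.58 in Control 1 and 2.

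**Figure D3:**
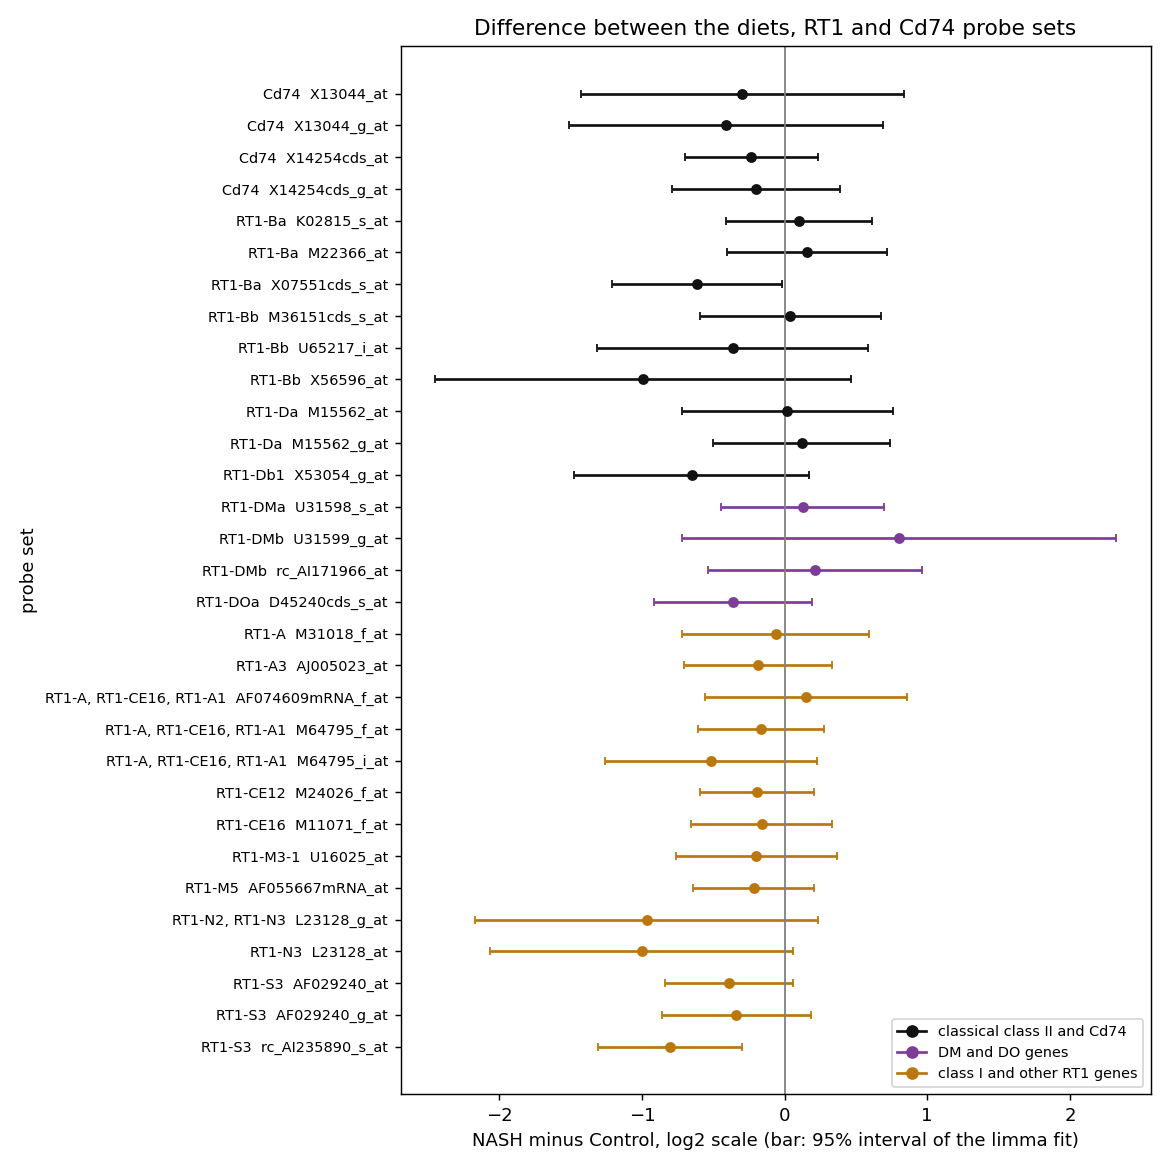
NASH minus Control difference (horizontal axis, log2 scale) with its 95% interval from limma for the 13 tested members (black), 4 probe sets of RT1-DM and RT1-DO genes (purple) and 14 probe sets of other RT1 genes (ochre). The member intervals include 0 except that of RT1-Ba X07551cds_s_at, which ends at −0.02, and 13 of the 14 ochre points lie below 0 with none called.

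The extremes of the members fell mostly on 2 arrays, one of each diet. On the normalized scale, NASH 3 was the lowest array for 10 of the 13 tested members, where it was lowest for 13.3% of all tested probe sets. Control 3 was the highest for 7 of 13, against 25.1% of all, NASH 2 for 3 and Control 2 for 3. Several members share a gene or probes, so these counts describe the arrays and are not independent. NASH 3 was also the lowest for 11 of 13 in the deposited signals, where it was lowest for 49.5% of all probe sets. The median over the 13 members, each centred on its own mean, was −0.07 in NASH 1, 0.24 in NASH 2 and −0.36 in NASH 3, against −0.16 in Control 1, 0.15 in Control 2 and 0.23 in Control 3. Without NASH 3, 6 of the 13 were lower in NASH and 7 higher, while with all arrays 8 were lower and 5 higher, where 52.9% of all probe sets were lower. Without NASH 2, 12 of 13 were lower, and without Control 3, 8 of 13.

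**Figure D4:**
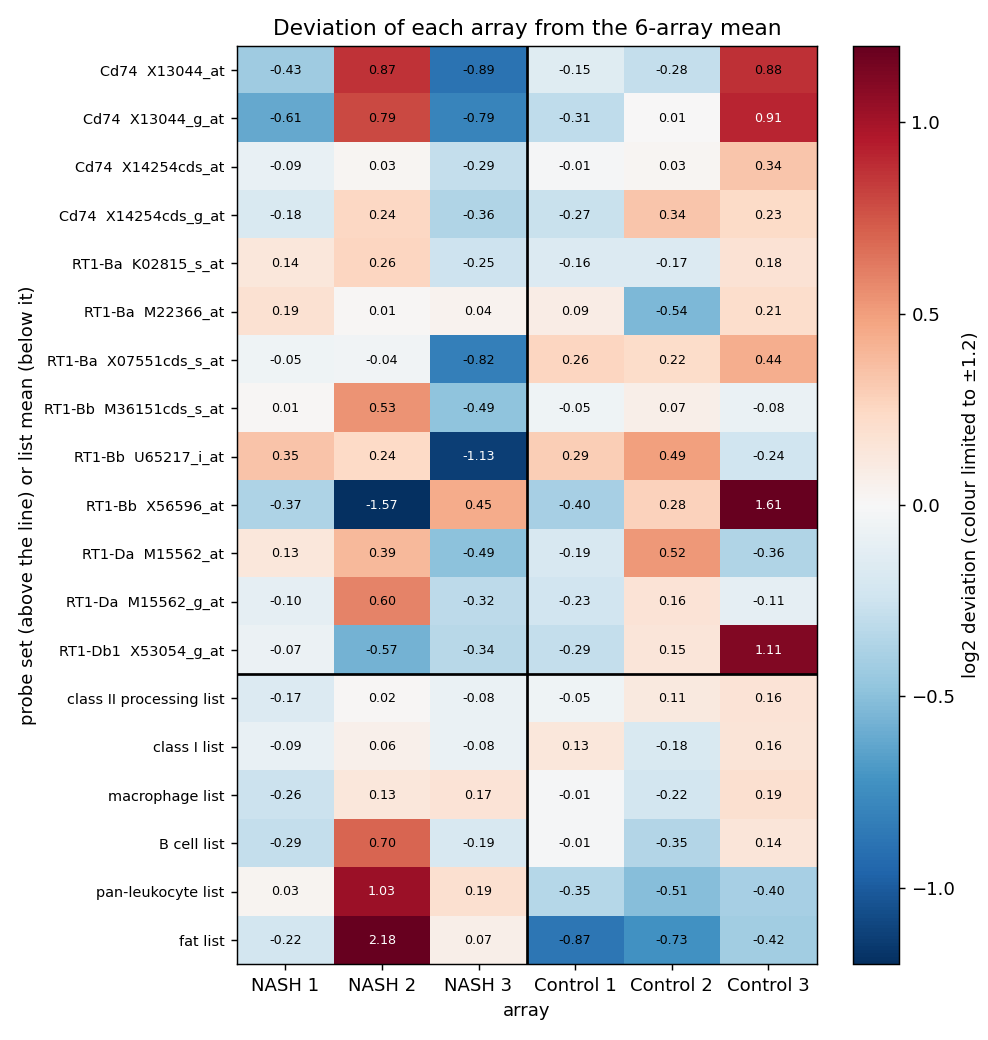
Deviation of each array (columns) from the 6-array mean in log2 units, for the 13 tested members (above the line) and for the mean of 6 gene lists (below it), with the value written in each cell. NASH 3 is below its row mean for 11 of the 13 members, and Control 3 stands out for Cd74 X13044_at and X13044_g_at, RT1-Bb X56596_at and RT1-Db1 X53054_g_at.

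Levels of marker genes for cells that carry class II were compared over the same arrays. Of 20 macrophage and Kupffer cell genes listed, 9 had a probe set and 7 were tested, 4 higher and 3 lower in NASH with none called. Clec4f, a Kupffer cell lectin, had deposited signals of 250, 364 and 373 in NASH and 384, 192 and 409 in Control (0.20 ± 0.34, limma adjusted p = 0.896), and the complement gene C1qb 256, 328 and 273 in NASH and 336, 137 and 489 in Control. Control 3 had the highest deposited signal for both; on the normalized scale it stayed highest for C1qb, and NASH 3 was highest for Clec4f. The summed deposited signal of the 9 macrophage genes was 1127 to 1371 in NASH and 953 to 1525 in Control. The others of the list nearest to a call were Fcgr2b, an inhibitory antibody receptor (0.22 ± 0.19), C1qc (−0.24 ± 0.22) and Aif1 (−0.23 ± 0.40), with limma adjusted p from 0.781 to 0.906. Only 2 of 13 B cell genes had a probe set, and both were highest in NASH 2: Cd79b, part of the B cell receptor, had 22.0, 42.0 and 13.4 in NASH and 30.7, 24.1 and 18.6 in Control, and Cd37, a leukocyte tetraspanin, 15.6, 36.0 and 14.3 in NASH and 19.3, 14.0 and 26.6 in Control. Of 10 dendritic cell genes 3 had a probe set and 1 was tested, Clec9a (−0.02 ± 0.27, adjusted p = 0.986).

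Among 6 pan-leukocyte genes, Spn was highest in Control 2 and Cd52 in NASH 1, both below the filter. The summed deposited signal of the 6 was highest in NASH 2 as well, with 128 to 319 in NASH and 103 to 152 in Control. The 4 tested of them, Coro1a, Cd53, Cd48 and Ptprc, averaged 1.03 above their own means in NASH 2, where Cd74 X13044_at lay 0.87 above its mean and RT1-Da M15562_g_at 0.60 above, while RT1-Bb X56596_at and RT1-Db1 X53054_g_at lay 1.57 and 0.57 below. Ptprc, the leukocyte common antigen, had log2 values of 5.36, 5.62 and 5.35 in NASH and 5.22, 5.22 and 5.05 in Control (0.28 ± 0.19, limma adjusted p = 0.724). On this scale NASH lay above Control without overlap, as for 6.56% of all probe sets. Its deposited signals overlapped, at 40.5, 48.3 and 28.4 in NASH and 39.6, 37.5 and 29.1 in Control. Coro1a, an actin-binding protein of leukocytes, differed by 1.46 ± 0.52, Cd48 by 0.84 ± 0.43 and Cd53 by 0.75 ± 0.30 (limma adjusted p = 0.553, 0.618 and 0.593). NASH 2 was the highest array for each of these 4 genes. Coro1a had a mean of 3.90 in Control, below the filter of 3.95, and passed the filter through its NASH mean of 5.36. Of T and natural killer cell genes 14 of 18 had a probe set and 5 were tested, none called, with Klrk1 at 0.40 ± 0.26, Lck at 0.39 ± 0.30 and Cd5 at −0.12 ± 0.20. The part of these cells, of the fat and muscle transcripts of NASH 2, or of the 3' to 5' ratio of Control 3 in the member values was not tested.

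The tissue lists had 0 calls as well. The 6 tested fat genes were all higher in NASH (median 1.10), with Cidea at 2.17 ± 0.62, Ucp1 at 3.11 ± 1.46, Lipe at 1.13 ± 0.57 and Adrb3 at 0.39 ± 0.21, and the summed deposited signal was 3627 in NASH 2 against 449 to 587 in the other 5 arrays. Of 7 tested muscle genes 6 were higher (median 1.21), with Tnnt3 at 2.07 ± 0.92, Acta1 at 3.44 ± 1.65, Tnnc2 at 1.21 ± 0.94 and Ckm at 1.30 ± 1.08, and NASH 2 again held the highest sum, 2353 against 92.6 to 195. Averaged over the 7 muscle genes, centred values were 2.52 in NASH 2, −0.42 and −0.23 in NASH 1 and 3, and −0.86 to −0.29 in Control. Acta1, Tnnt3, Ucp1 and Tnnc2 had Control means of 2.72, 2.97, 3.21 and 3.89, below the filter of 3.95. Each passed the filter through its NASH values and was highest in NASH 2. Of 4 tested endothelial genes 3 were higher and 1 lower. Lyve1, a marker of sinusoidal endothelium, differed by −0.58 ± 0.21 without overlap (limma adjusted p = 0.553), Flt1 by 0.30 ± 0.26, Pecam1 by 0.25 ± 0.22 and Kdr by 0.22 ± 0.29. Of 15 tested hepatocyte genes 7 were higher and 8 lower (median −0.06), with Foxa2 at −0.97 ± 0.31, Fga at 0.27 ± 0.10, Otc at −0.70 ± 0.27 and Ambp at −0.27 ± 0.11.

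Genes that act with class II showed no call either. The processing list (18 genes, 12 with a probe set, 10 tested) had 3 higher and 7 lower in NASH, 0 called and a median difference of −0.12. Rfx5, a subunit of the RFX factor at the X box, had deposited signals of 25.1, 13.1 and 12.8 in NASH and 29.5, 23.8 and 40.3 in Control (−0.68 ± 0.33, limma adjusted p = 0.618). The cathepsin Ctsb had 614, 460 and 433 in NASH and 738, 499 and 863 in Control (−0.33 ± 0.20, adjusted p = 0.693), and its normalized values did not overlap between groups. RT1-DOa, a chain of the DO molecule that restrains DM, also lay apart, with log2 values of 7.10, 6.94 and 7.11 in NASH and 7.22, 7.86 and 7.15 in Control (−0.36 ± 0.24, adjusted p = 0.710). Ctsd differed by −0.22 ± 0.20 (adjusted p = 0.794). Ctss, the cathepsin that trims the invariant chain in antigen-presenting cells, differed by 0.01 ± 0.34 (adjusted p = 0.997). The peptide loader genes RT1-DMa and RT1-DMb had differences of 0.13, 0.21 and 0.80 over 3 tested probe sets. The largest was that of U31599_g_at of RT1-DMb, at 3.48, 5.37 and 5.12 in NASH and 4.16, 2.66 and 4.74 in Control. Its Control mean of 3.85 lay below the filter of 3.95, and it passed the filter through its NASH mean of 4.66. Ciita had no probe set with its symbol alone and was not analysed here.

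A mixed interferon list, of interferon gamma signalling genes and other interferon targets such as Oas1a, was also tested (20 genes, 11 with a probe set, 7 tested, 5 higher and 2 lower, 0 called, median 0.10). Irf1, an early interferon target, had 415, 245 and 210 in NASH and 325, 108 and 254 in Control (0.57 ± 0.34, limma adjusted p = 0.688), Control 2 being lowest. The receptor chain Ifngr1 differed by 0.27 ± 0.33 (adjusted p = 0.853), Oas1a by −0.24 ± 0.22 (0.797) and Jak1 by 1.00 ± 0.66 (0.710), the last through a low value of 2.37 in Control 3 against 32.5 and 34.2 in Control 2 and 1 and 29.6 to 33.3 in NASH. Interferon gamma itself (Ifng) was below the filter, at 5.66 to 9.66 in NASH and 3.12 to 15.0 in Control. Of the costimulation list (9 genes, 8 with a probe set, 4 tested), 3 were higher and 1 lower with 0 called: Cd4 differed by 0.36 ± 0.22, Cd86 by 0.33 ± 0.29, Ctla4 by 0.08 ± 0.25 and Icam1 by −0.03 ± 0.22 (limma adjusted p from 0.696 to 0.981).

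Of the other MHC class II genes on the array (RT1-DM, RT1-DO and RT1-Ha), 8 probe sets were found and 4 tested, 3 higher and 1 lower in NASH with 0 called (median 0.17, lowest limma adjusted p 0.710). Among the 3 higher was RT1-DMb U31599_g_at, which passed the filter through its NASH values. Of the 16 remaining RT1 probe sets, of MHC class I type, 14 were tested, and 13 had a lower mean in NASH with 0 called (median −0.21, lowest adjusted p 0.437), against 52.9% lower among all probe sets. Without scaling between arrays 14 of 14 were lower, where the median of all probe sets was −0.17, and 13 of 14 lay below that median. Several of these sets share probes by their _f_at or _s_at design and 3 carry the same 3 symbols, so they are not independent. The 3 sets of RT1-S3 differed by −0.80 ± 0.22, −0.39 ± 0.19 and −0.34 ± 0.23 (limma adjusted p = 0.437, 0.618 and 0.710), and rc_AI235890_s_at had 7.78, 7.24 and 7.61 in NASH and 8.35, 8.53 and 8.15 in Control without overlap. B2m, the light chain of class I, differed by −0.11 ± 0.12 (adjusted p = 0.831). Of the wider class I presentation list (23 genes, 12 with a probe set, 12 tested), 5 were higher and 7 lower with 0 called, Canx at −0.26 ± 0.16, Psmb8 at 0.37 ± 0.31 and Pdia3 at −0.19 ± 0.20. Whether class I and class II sets differ from each other was not tested.

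The 8 genes whose arrays followed the median member profile most closely were picked by the mean absolute difference of centred log2 values over the 6 arrays, among 4286 single-symbol probe sets. They were Mdh2 (0.059), Stat5b (0.063), R3hcc1 (0.069), RT1-CE12 (0.072), Cyp4b1 (0.077), Lbh (0.083), Ccne1 (0.085) and Dgka (0.086), against a median of 0.312 over all candidates. The members themselves lay 0.068 to 0.778 from that profile, with a median of 0.246, and 1233 of the 4286 candidates lay closer than that median. RT1-CE12, a class I gene, was the only RT1 gene among the 8. Its values of 10.17, 10.40 and 9.88 in NASH and 10.27, 10.26 and 10.48 in Control had NASH 3 lowest and Control 3 highest.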

How the data were processed

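Liver total RNA of 3 NASH and 3 Control samples was hybridized to Affymetrix RG_U34A arrays, 1 array per sample, per the file headers and labels. The deposited values are linear MAS5 intensities per the submitters' processing notes, which give no version, scaling target or background setting, and the precision is limited by the number of arrays. Samples were grouped by title. All 8799 probe sets were quantile normalized, an offset of 2.28 (10th percentile of all values) was added and log2 taken, so fold changes of dim probe sets are understated. After 59 array controls were left out, the 5244 of 8740 probe sets above the 40th percentile of mean log2 (3.95) were tested with limma 3.58.1 (R 4.3.3; variance trend on intensity, no covariate; degrees of freedom 4 residual and 3.90 prior) with Benjamini-Hochberg adjustment over all of them. The code was tested on simulated data. Symbols came from the platform annotation; the brightest single-symbol probe set stood for a listed gene. Named genes were every member, up to 4 genes per list by p, 8 by likeness to the member profile, and fixed immune and tissue genes; other genes named beside them were chosen after their values were seen. The members and lists were chosen with earlier results of these data known. Alternatives covered scaling, offset, filter, prior, weights, blocks and left-out arrays. Promoter sequences are RefSeq's (GRCr8).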

Additional observations from a re-analysis of the deposited data

How the results depend on the processing

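No member was called under any of the 18 alternatives with a test, with 0.409 the lowest adjusted p of any member (limma, RT1-Ba X07551cds_s_at with array weights). Over all alternatives the median difference of the 16 members lay between −0.48 and −0.09, while that of the 13 tested members, −0.23 with all arrays, was 0.07 without NASH 3. The number called over all probe sets, 7, was 14 without scaling, 0 without a filter (413 of 5244 at an unadjusted p under 0.05 in the filtered fit), 3 without the intensity trend, 18 with array weights, 3 with the wash record as a block, 16 with both arrays numbered 2 left out, 1 within the arrays with a filled wash record (NASH 1, NASH 2, Control 1, Control 3), and 0 to 17 with each array left out in turn (17 without NASH 2, at most 1 without any other). With the replicate block 1 was called and no member; same-numbered samples had correlations of deviations of 0.048, −0.021 and 0.073, so the numbers were not taken as pairs, and the block changed no member's call. The sign of many member differences, not only of small ones, depended on the setting, and the cause was not tested. Without scaling, RT1-Ba K02815_s_at differed by −0.068 and M22366_at by −0.038, RT1-Bb M36151cds_s_at by −0.11, and RT1-Da M15562_at by −0.11 and M15562_g_at by −0.014. With array weights M36151cds_s_at differed by −0.10 and M15562_at by −0.015. With both arrays numbered 2 left out, K02815_s_at differed by −0.063, M22366_at by −0.038, M36151cds_s_at by −0.18 and M15562_g_at by −0.037. Within the filled wash record, Cd74 X14254cds_g_at differed by 0.052, M22366_at by −0.051 and RT1-Bb U65217_i_at by 0.27. For NASH 3 minus Control 2, the blank wash record, RT1-Bb X56596_at differed by 0.17, against −0.99 with all arrays. RT1-Db1 X53054_at differed by 1.38 there, against −0.31, and M36151cds_i_at by 0.19, against −0.10. Signs also turned there for K02815_s_at (−0.083), M36151cds_s_at (−0.56), M15562_at (−1.01) and M15562_g_at (−0.48). With each array left out in turn, the difference ran from −0.81 to 0.073 for Cd74 X13044_at, −0.0015 to 0.25 for K02815_s_at, −0.071 to 0.30 for M22366_at, −0.22 to 0.29 for M36151cds_s_at, −0.63 to 0.11 for U65217_i_at, −0.17 to 0.29 for M15562_at and −0.15 to 0.31 for M15562_g_at. For the dim sets X53054_at and M36151cds_i_at it ran from −0.75 to 0.32 and from −0.24 to 0.054. The 3 dim members (M15358cds_at, M36151cds_i_at, X53054_at) lie where signal over background limits any statement.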
